A study of Mus musculus with 16 samples.

Results

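Collagens are the main fibrous proteins of the extracellular matrix, and each collagen molecule is built of chains encoded by separate genes. The collagen chain genes were taken as all genes of the count table whose mouse symbol has the form Col, a number, a and a number. This gave 44 chains among 55471 gene identifiers, of which 35 had enough counts to be tested, among 14331 tested genes in all. The libraries are bulk RNA-seq of skeletal muscle from 16 male mice on a high-fat diet (HFD), 1 mouse to a library. In the labels 10 libraries are heterozygous (*Npr1*+/-) and 6 are wildtype (*Npr1*+/+), and the question asked of them was how muscle transcripts differ when 1 copy of *Npr1*, the gene of the natriuretic peptide receptor GCA, is lost. The male mice, given as 12 weeks old, carried the B6.129-Npr1tm1Gar/J allele on a C57BL/6J background or were wildtype littermates, and all of them ate a diet with 60% of its energy from fat during 12 weeks. The allele is carried in all cells of the body, and the labels do not say which muscle was sampled.

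Collagen chains wind around each other in the endoplasmic reticulum, where prolines and lysines are hydroxylated, and are then secreted, trimmed and crosslinked. In skeletal muscle, fibrillar types I and III, with smaller amounts of type V, form the fibers of the endomysium, perimysium and epimysium. Type IV forms the network of the basement membrane around muscle fibers and capillaries, and type VI forms beaded filaments that link this membrane to the fibrils. Smaller families have local roles: type XXII at the myotendinous junction, type XIII at the neuromuscular junction, and types XII and XIV on the surface of fibrils. Fibroblasts make most of the fibrillar and type VI chains, whereas endothelial cells are a large source of type IV. In bulk tissue, fewer cells of a type and less RNA per cell cannot be told apart.

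Library totals ranged from 15832624 to 59682677 counts in the libraries labelled *Npr1*+/- and from 15273472 to 29630298 in those labelled *Npr1*+/+. Levels are given as CPM, which are counts scaled with TMM to a common library size, and between chains as CPM per kilobase of gene length. *Npr1* itself did not differ detectably between the labels. It had 13.6 ± 3.87 CPM (SD, n = 10, median 12.0) under the heterozygous label and 12.2 ± 1.05 CPM (SD, n = 6, median 12.4) under the wildtype one. The log2 fold change of *Npr1* was 0.09 (SE 0.20, 95% interval -0.33 to 0.51, Benjamini-Hochberg adjusted p = 1 in the quasi-likelihood test of edgeR), so every direction below is between libraries as labelled. The muscle label fitted the markers, since the summed level of 6 skeletal muscle fiber genes was 82072 to 139058 CPM. The mice were housed in 4 cages of 3 to 5, each with mice of both labels, and weighed 36.5 to 48.1 g in the first group and 40.5 to 54 g in the second.

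Replicates 6 and 7 labelled *Npr1*+/- stood apart from the rest. Of the 35 tested chains, 30 in replicate 6 and 27 in replicate 7 were above the chain's own mean over the 16 mice. For 16 chains (45.7%) both libraries were higher than all 14 others, which was so for 17.8% of all tested genes, and for 0 chains were both lower than all others, against 16.2% of all genes. Both libraries also had the highest slopes of level on GC content and on transcript length. Their slopes were 0.40 and 0.30 log2 per 10 percentage points of GC, where the other 14 lay between -0.29 and 0.13, and 0.43 and 0.54 log2 per doubling of length, where the others lay between -0.35 and 0.31. Summed levels of 6 endothelial marker genes (*Pecam1*, *Cdh5*, *Kdr*, *Tie1*, *Vwf* and *Cldn5*) were 485 and 539 CPM in these libraries and 152 to 334 CPM in the others. The part of GC content, length and endothelial RNA in the collagen values was not tested, and correlations, spans and slopes of the chains that rest on these libraries are given with and without them.

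The chains that varied most alike, *Col4a1* and *Col4a2*, lie head to head on opposite strands. Their gene models share 22 bases at the start (GRCm38), and their RefSeq transcription start sites are 21 bases apart. Whether the counting used strand is not given in the sources used here, so fragments within these bases cannot be assigned with certainty. The RefSeq windows of 250 bases before to 50 bases after each start (GRCm38.p6) are printed 5′ to 3′ on the strand of each gene, because they show the region that both genes begin in. The first is chr8:11312777-11313076 on the minus strand and the second chr8:11312555-11312854 on the plus strand. Capitals mark the 78 bases that both windows cover, each the reverse complement of the other.
Col4a1: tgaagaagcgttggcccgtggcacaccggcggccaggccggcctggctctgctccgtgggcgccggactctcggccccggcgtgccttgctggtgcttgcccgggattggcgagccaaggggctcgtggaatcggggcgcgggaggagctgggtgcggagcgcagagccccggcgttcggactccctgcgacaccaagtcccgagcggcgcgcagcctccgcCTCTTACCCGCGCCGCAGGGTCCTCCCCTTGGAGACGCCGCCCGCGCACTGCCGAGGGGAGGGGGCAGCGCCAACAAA
Col4a2: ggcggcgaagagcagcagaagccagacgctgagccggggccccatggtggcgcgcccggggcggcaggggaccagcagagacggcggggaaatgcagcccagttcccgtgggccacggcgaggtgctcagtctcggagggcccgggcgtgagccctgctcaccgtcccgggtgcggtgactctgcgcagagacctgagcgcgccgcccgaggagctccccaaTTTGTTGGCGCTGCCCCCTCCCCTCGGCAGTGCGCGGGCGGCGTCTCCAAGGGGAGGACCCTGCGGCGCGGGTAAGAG
The windows hold 74.0% and 73.7% G and C, where the median over 27025 genes was 52.7% and the median over the collagen chains with a window was 60.0%. Of 3 short motifs searched on both strands, the CCAAT box (CCAAT) occurred once in each window, and neither CCAAT lies within the shared bases in full. The GC box (GGGCGG) occurred in both, with 1 match inside the shared bases. The TATA box (TATAAA) occurred in neither. Among the 35 chains with a window (28 of them tested), 22 (62.9%) held GGGCGG against 35.9% of all windows, 12 (34.3%) held CCAAT against 37.9%, and 5 (14.3%) held TATAAA against 14.2%. *Col3a1*, the most abundant chain, was among those 5, and *Col1a2* held CCAAT. A match describes these letters only.

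Fibrillar, basement membrane and type VI chains made up most collagen mRNA. The summed level of all 44 chains was 805 to 1587 CPM, with a median of 908. Fibrillar chains gave 419 to 635 CPM (median 499), type IV chains 111 to 490 CPM (median 150), type VI chains 87.5 to 244 CPM (median 105) and FACIT chains, which decorate fibrils, 40.1 to 107 CPM (median 68.0). The multiplexins *Col15a1* and *Col18a1*, proteoglycan chains of basement membrane zones, gave 23.5 to 59.9 CPM together. The upper ends for all chains together, type IV, type VI, FACIT and multiplexins were in replicates 6 or 7 labelled *Npr1*+/-.

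Per kilobase, *Col3a1*, the single chain of type III collagen, led with a median of 19.4 CPM per kilobase over the 16 mice (range 13.4 to 23.6). *Col4a1* (11.9), *Col1a1* (11.7), *Col1a2* (10.1), *Col6a1* (9.25) and *Col4a2* (8.26) followed. Neighbours in this order had overlapping ranges, *Col3a1* and *Col4a1* included, so their order is not beyond the spread between mice. *Col5a2* (4.92), *Col6a2* (4.79), *Col5a3* (4.31) and *Col15a1* (3.39) came next, and *Col5a1* (2.06), *Col6a3* (1.94) and *Col22a1* (1.86) lay near 2 CPM per kilobase. A long middle of 7 chains, *Col16a1*, *Col18a1*, *Col12a1*, *Col24a1*, *Col9a1*, *Col8a2* and *Col7a1*, had medians of 1.40 down to 1.04. The medians of *Col14a1*, *Col8a1*, *Col11a2*, *Col20a1*, *Col23a1*, *Col28a1*, *Col11a1*, *Col13a1*, *Col4a5*, *Col6a6*, *Col4a3*, *Col4a4*, *Col9a2*, *Col27a1* and *Col26a1* ran from 0.97 to 0.12.

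**Figure D1:**
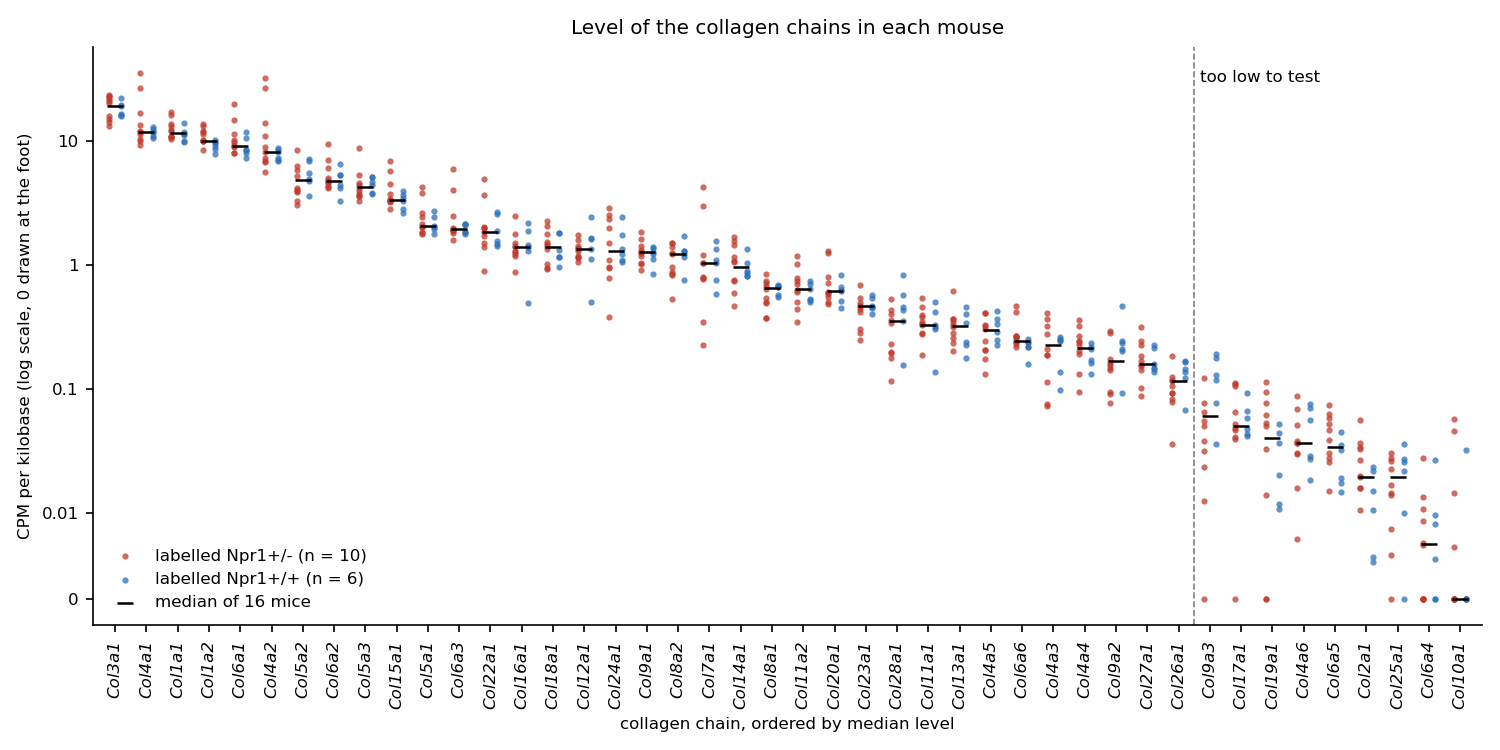
CPM per kilobase (log axis, with 0 drawn at the foot) of the 44 collagen chains in each mouse, ordered by the median over 16 mice (black bars), with red points for libraries labelled *Npr1*+/- and blue for *Npr1*+/+. Medians run from 19.4 for *Col3a1* to 0 for *Col10a1*, the colours overlap for each chain, and the 9 chains right of the dashed line were too low to test.

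The spread over mice differed between chains. The abundant fibrillar chains had a narrow range, as the highest mouse exceeded the lowest 1.73-fold for *Col1a1*, 1.76-fold for *Col1a2* and 1.76-fold for *Col3a1*. *Col4a1* spanned 3.76-fold and *Col4a2* 5.68-fold, and *Col7a1*, the chain of anchoring fibrils, spanned 18.9-fold, from 2.33 to 43.99 CPM. *Col24a1*, a minor fibrillar chain, spanned 7.69-fold. Without replicates 6 and 7 labelled *Npr1*+/-, the spans were 1.64-fold for *Col1a1*, 1.76-fold for *Col1a2*, 1.64-fold for *Col3a1*, 1.80-fold for *Col4a1*, 2.44-fold for *Col4a2*, 6.86-fold for *Col7a1* and 6.47-fold for *Col24a1*. The wide spans of *Col4a1* and *Col4a2* thus rested on these libraries.

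Too low to test were 9 chains, namely *Col2a1*, *Col4a6*, *Col6a4*, *Col6a5*, *Col9a3*, *Col10a1*, *Col17a1*, *Col19a1* and *Col25a1*. Several of them belong to other tissues, such as *Col2a1* and *Col9a3* of cartilage, *Col10a1* of hypertrophic cartilage and *Col17a1* of the hemidesmosomes of epithelia. *Col10a1* had 0 counts in 11 of 16 libraries and 10 counts in all. *Col6a4* had 27 counts in all and 0 in 6 libraries. The other 7 had 74 to 129 counts in all, and at most 32 in a library. A count of 0 allows up to 3 counts, which is 0.0493 CPM in the deepest library and 0.219 CPM in the one with the highest limit, and such limits cover counting error only. *Col9a3* had medians of 0.17 CPM in the libraries labelled *Npr1*+/- and 0.477 CPM in those labelled *Npr1*+/+ with overlapping ranges, and it was not tested.

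Between the labels, 0 of the 35 tested chains passed an adjusted p under 0.05 (0% of all tested genes) in the quasi-likelihood test of edgeR on the genotype label, corrected for cage and body weight and adjusted by Benjamini-Hochberg over 14331 genes. The adjusted p was 1 for each chain. At an unadjusted p under 0.05, 1 chain passed (*Col9a2*), where 1.05% of all genes did. For 25 chains the fit gave a log2 fold change above 0 and for 10 below, against 48.4% of all genes above 0, and the median was 0.17 against -0.0060 for all genes. This tilt changed with the mice included. Without replicate 6 labelled *Npr1*+/- 14 of 35 chains (40%) were above 0, against 45.9% of all genes, and the median was -0.07. Without replicates 6 and 7 60% of the chains were above 0, and without replicates 3, 6 and 7 71.4%, against 53.9% of all genes in both fits. The values of the labels overlapped for each of the 35 chains, and 0.00698% of all genes did not overlap. As each library is a separate mouse, the test measures spread between mice.

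**Figure D2:**
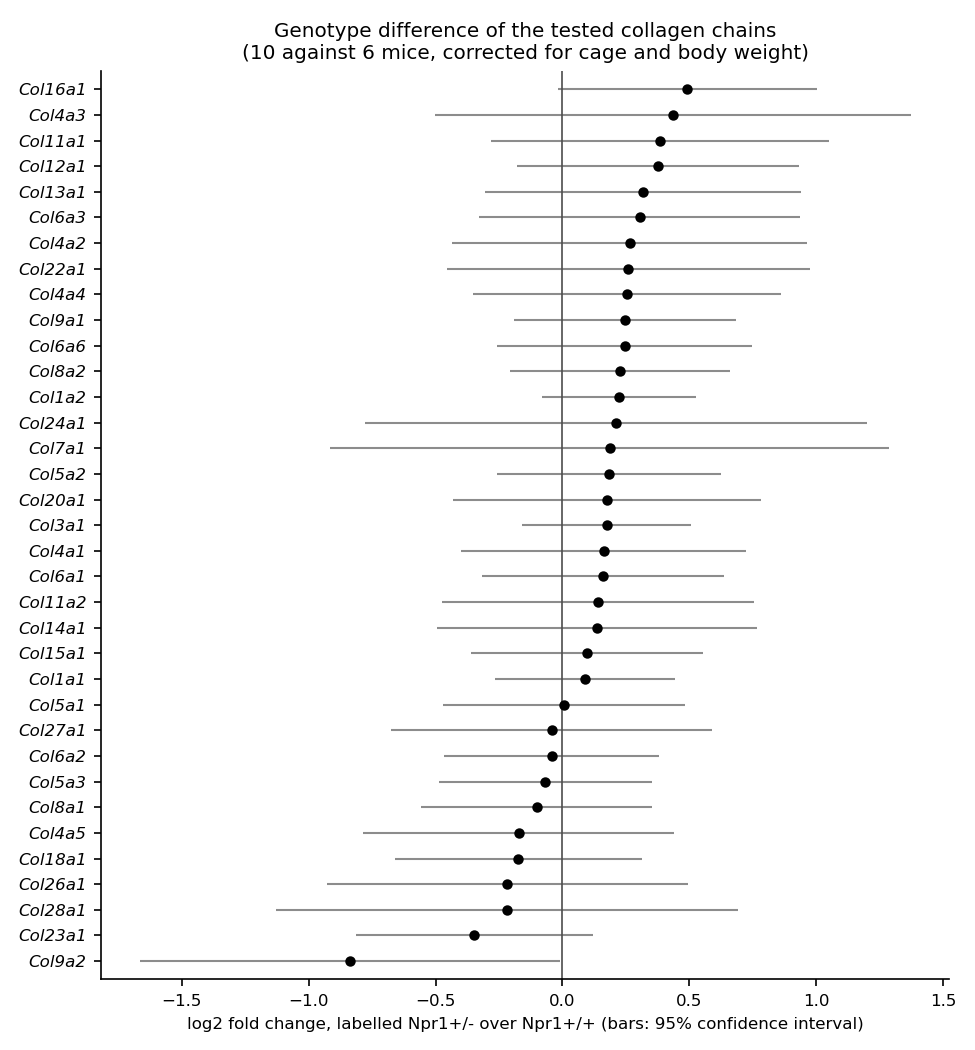
Log2 fold change of the 35 tested chains between libraries labelled *Npr1*+/- (n = 10) and *Npr1*+/+ (n = 6) from the edgeR fit corrected for cage and body weight, with 95% confidence intervals as bars. Only the interval of *Col9a2* excludes 0, and all adjusted p-values are 1.

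The fibrillar chains of the endomysium and perimysium were close between the labels. *Col1a1* (chr11:94936224-94953042), the main chain of type I collagen, had 68.1, 80.8 and 113 CPM as lowest, median and highest in the libraries labelled *Npr1*+/- and 65.3, 74.6 and 92.3 CPM in those labelled *Npr1*+/+. The log2 fold change of *Col1a1* was 0.09 (95% interval -0.26 to 0.44). *Col1a2* (chr6:4504814-4541544), its partner in the heterotrimer, had 106, 135 and 173 CPM against 98.5, 117 and 127 CPM. The medians of *Col1a2* were further apart than those of *Col1a1*, yet the ranges overlapped. Its log2 fold change was 0.22 (-0.08 to 0.53, unadjusted p = 0.137 and adjusted p = 1 in edgeR's test). The difference of *Col1a2* was above 0 within each of the 4 cages (0.10 to 0.25), which was so for 1 of 35 chains (2.86%) and 4.57% of all genes. *Col3a1* (chr1:45311538-45349706) had 132, 205 and 232 CPM against 158, 176 and 220 CPM, with a log2 fold change of 0.17 (-0.16 to 0.51). Replicate 7 labelled *Npr1*+/- was the lowest of the 16 mice for *Col3a1*.

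The type V chains regulate fibril diameter as minor partners of type I. *Col5a1* (chr2:27886425-28037015) had 15.2, 17.8 and 36.4 CPM against 15.2, 17.7 and 23.5 CPM, and a log2 fold change of 0.01 (-0.47 to 0.48). *Col5a2* (chr1:45374321-45503282) had 29.6, 39.7 and 81.1 CPM against 34.6, 50.5 and 69.1 CPM. The medians of *Col5a2* were thus lower in the libraries labelled *Npr1*+/-, whereas the fit, which takes account of cage and body weight, gave a log2 fold change of 0.18 (-0.26 to 0.63). Without covariates it was -0.18. The remaining fibrillar chains *Col5a3*, *Col11a1*, *Col11a2*, *Col24a1* and *Col27a1* had log2 fold changes of -0.07 to 0.39, and the intervals included 0.

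*Col4a1* and *Col4a2* had a wider range under the heterozygous label, and the medians of *Col4a1* were near equal. *Col4a1* (chr8:11198423-11312826) had 70.5, 89.7 and 265 CPM in the libraries labelled *Npr1*+/- and 79.4, 89.2 and 98.1 CPM in those labelled *Npr1*+/+. *Col4a2* (chr8:11312805-11449287), which joins it in the main basement membrane trimer, had 37.8, 57.2 and 215 CPM against 46.2, 51.3 and 58.7 CPM. Replicates 6 and 7 labelled *Npr1*+/- lay above all other mice, with 265 and 201 CPM for *Col4a1* and 215 and 178 CPM for *Col4a2*. Log2 fold changes were 0.16 (-0.40 to 0.72) for *Col4a1* and 0.27 (-0.44 to 0.97) for *Col4a2*. Without both libraries they were -0.04 and 0.04. *Col4a3*, *Col4a4* and *Col4a5*, chains of specialised membranes such as that of the glomerulus, had log2 fold changes of 0.44, 0.25 and -0.17, with intervals that included 0.

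The type VI chains form the microfibrils near the muscle basement membrane, and mutations in *Col6a1*, *Col6a2* or *Col6a3* are known in muscular dystrophy. *Col6a1* (chr10:76708792-76726168) had 35.2, 42.3 and 87.9 CPM against 32.3, 37.3 and 51.9 CPM, and a log2 fold change of 0.16 (-0.32 to 0.63). *Col6a2* (chr10:76595762-76623630) had 34.8, 39.9 and 79.2 CPM against 27.5, 40.5 and 54.9 CPM, and a log2 fold change of -0.04 (-0.47 to 0.38). *Col6a3* (chr1:90765923-90843971) had 19.1, 23.3 and 72.3 CPM against 21.5, 23.8 and 25.6 CPM, and a log2 fold change of 0.30 (-0.33 to 0.94). Replicates 6 and 7 labelled *Npr1*+/- were the highest mice for all 3 chains, and the other libraries of both labels overlapped. Without them the log2 fold changes were 0.01, -0.20 and 0.09. *Col6a6* had 0.25 (-0.26 to 0.75).

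Among the chains of fibril surfaces and junctions, *Col9a2*, a chain of type IX collagen known from cartilage, had the smallest p for the label. It had 0.238, 0.467 and 0.908 CPM against 0.287, 0.692 and 1.44 CPM, which was 4 to 39 counts in a library. Its log2 fold change was -0.84 (-1.67 to -0.01, unadjusted p = 0.0481 and adjusted p = 1 in edgeR's test). The difference of *Col9a2* was below 0 within each of the 4 cages (-1.42 to -0.17), which was so for 3 chains (8.57%, with *Col4a5* and *Col26a1*) and 7.35% of all genes. Leaving out 1 mouse at a time gave -1.21 to -0.50, and *Col9a1*, a partner of *Col9a2*, had 0.25 (-0.19 to 0.68). *Col16a1* (chr4:130047840-130099277), a minor fibril-associated chain, had 5.91, 9.16 and 16.9 CPM against 3.34, 9.65 and 14.8 CPM. Its log2 fold change of 0.49 (-0.02 to 1.004, unadjusted p = 0.0582 and adjusted p = 1 in edgeR's test) rested on the covariates and on 1 mouse, as it was -0.0054 with the label alone and 0.13 without replicate 4 labelled *Npr1*+/+. *Col22a1* (chr15:71795795-72034227) of the myotendinous junction had 8.24, 17.6 and 45.6 CPM against 13.1, 15.9 and 24.7 CPM, with a log2 fold change of 0.26 (-0.45 to 0.97). The fibril-surface chains *Col12a1*, *Col14a1* and *Col20a1* had 0.38, 0.14 and 0.18.

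Of the transmembrane chains, *Col13a1* (chr10:61838236-61979073) of the neuromuscular junction had 0.944, 1.51 and 2.90 CPM against 0.834, 1.36 and 2.16 CPM. Its log2 fold change was 0.32 (-0.31 to 0.94). *Col23a1* (chr11:51289920-51580299) had 1.43, 2.61 and 3.95 CPM against 2.32, 2.67 and 3.27 CPM, and a log2 fold change of -0.35 (-0.81 to 0.12, unadjusted p = 0.135 and adjusted p = 1 in edgeR's test). For *Col23a1* the libraries labelled *Npr1*+/- lay on both sides of the range of the others, and for *Col13a1* the ranges overlapped, with the lowest mouse labelled *Npr1*+/+ and the highest *Npr1*+/-. The network chains *Col8a1* and *Col8a2*, found in vessel walls, had -0.10 and 0.23. *Col15a1*, *Col18a1*, *Col7a1*, *Col26a1* and *Col28a1* lay between -0.22 and 0.19.

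Body weight was a term of the same fit, and its coefficient is a log2 slope per g. With all 16 mice, 0 of 35 chains passed an adjusted p under 0.05 (0% of all tested genes) in the quasi-likelihood test of edgeR, adjusted by Benjamini-Hochberg. At an unadjusted p under 0.05, 5 chains passed, 2 with a positive and 3 with a negative slope, where 17.1% of all genes passed, 4.74% positive and 12.3% negative. A positive slope was found for 16 chains, against 47.3% of all genes.

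The chains with positive slopes were led by *Col5a2*, at 0.099 log2 per g (SE 0.028), which is 1.98-fold per 10 g (95% interval 1.32 to 2.98). Its adjusted p was 0.245 in edgeR's test, adjusted over 14331 genes. In DESeq2 with Benjamini-Hochberg adjustment it was 0.0488, but there the adjustment covered fewer genes, so the 2 values are not alike. The slope of *Col5a2* was 0.088 to 0.12 when each mouse was left out in turn. *Col8a2* (chr4:126286793-126314330), a short network chain, had 0.091 (SE 0.028), or 1.87-fold per 10 g (1.25 to 2.82), with an adjusted p of 0.245 in edgeR's test. The lightest mouse (36.5 g) had the lowest value of all mice for *Col8a2*, 2.41 CPM. *Col3a1*, the neighbour of *Col5a2* on chromosome 1, had 0.042 (SE 0.021), or 1.34-fold per 10 g (0.98 to 1.83), with an adjusted p of 0.314 in edgeR's test. The 2 chains of type I collagen were flat, at -0.0079 for *Col1a1* and 0.0080 for *Col1a2*, and 10 g changed them 0.947-fold (0.694 to 1.29) and 1.06-fold (0.803 to 1.39).

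The most negative slopes at an unadjusted p under 0.05 were those of *Col4a2*, *Col4a1* and *Col18a1*, chains of basement membranes. *Col4a2* had -0.12 (SE 0.045), or 0.45-fold per 10 g (0.231 to 0.875), *Col4a1* had -0.077 (SE 0.036), or 0.585-fold (0.344 to 0.997), and *Col18a1* (chr10:77052178-77166548), the source of endostatin, had -0.077 (SE 0.031), or 0.588-fold (0.371 to 0.933). Their adjusted p-values were 0.249, 0.290 and 0.258 in edgeR's test. Without replicates 6 and 7 labelled *Npr1*+/-, 1 of which is the lightest mouse, the slopes were -0.055, -0.035 and -0.060. The slopes of *Col5a2* and *Col8a2* were 0.11 and 0.080 without these libraries. The other type IV chains had positive slopes, at 0.049 for *Col4a3*, 0.024 for *Col4a5* and 0.0020 for *Col4a4*, with adjusted p-values of 0.644, 0.756 and 0.978 in edgeR's test. These slopes turned to -0.0041, -0.0058 and -0.014 without replicate 3 labelled *Npr1*+/-. They were 0.13, 0.036 and 0.035 without replicates 6 and 7, and 0.11, 0.028 and 0.029 without replicates 3, 6 and 7.

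Marker genes of cell types had slopes on body weight too, and their counts stand beside 47.3% positive slopes over all genes and, at an unadjusted p under 0.05, 4.74% positive and 12.3% negative. All 6 endothelial markers had a negative slope, with a median of -0.076, and 2 of them, *Kdr* (-0.13) and *Cdh5* (-0.088), had an unadjusted p under 0.05. Of the 6 mural cell markers 5 were negative (median -0.071), and of the 6 muscle fiber markers 5 were negative (median -0.057), with 2 at an unadjusted p under 0.05 in each list. Of 8 fibroblast markers 6 were positive (median 0.039), among them *Lum* (0.13) and *Dcn* (0.075), the 2 at an unadjusted p under 0.05. Of 8 tendon markers 5 were positive (median 0.034), among them *Kera* (0.14) and *Tnmd* (0.086), the 2 at that threshold. All 5 macrophage markers were positive (median 0.068, 2 at that threshold). Positive slopes were found for 5 of 6 adipocyte markers (median 0.082), 3 of 6 Schwann cell markers and 2 of the 3 tested cartilage and bone markers, with 0 at that threshold. None passed an adjusted p under 0.05, the smallest being 0.245 in edgeR's test. When replicates 6 and 7 labelled *Npr1*+/- were left out, the medians were -0.027 for endothelial (all 6 negative, 0 at an unadjusted p under 0.05), -0.015 for mural cell, -0.066 for muscle fiber, 0.029 for fibroblast, 0.053 for tendon and 0.057 for macrophage markers, and *Kdr* and *Cdh5* were -0.034 and -0.036. Without replicate 3 labelled *Npr1*+/-, the median of the endothelial markers was -0.12. An adjusted p under 0.05 in edgeR's test was then found for 13.7% of all genes with a negative slope and 8.44% with a positive one. It was found for 5 of 6 endothelial and 3 of 6 mural cell markers, all negative. The 3 of 8 fibroblast and 1 of 5 macrophage markers that passed were positive. For muscle fiber, 3 of 6 passed, *Myh4* (-0.28), *Myh1* (-0.31) and *Pvalb* (0.12). For tendon, 3 of 8 passed, *Kera* (0.15), *Comp* (-0.15) and *Chad* (-0.14). Of 6 Schwann cell markers 1 passed (*Sox10*, -0.13). The part of these cell types in the slopes of the chains was not tested.

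**Figure D3:**
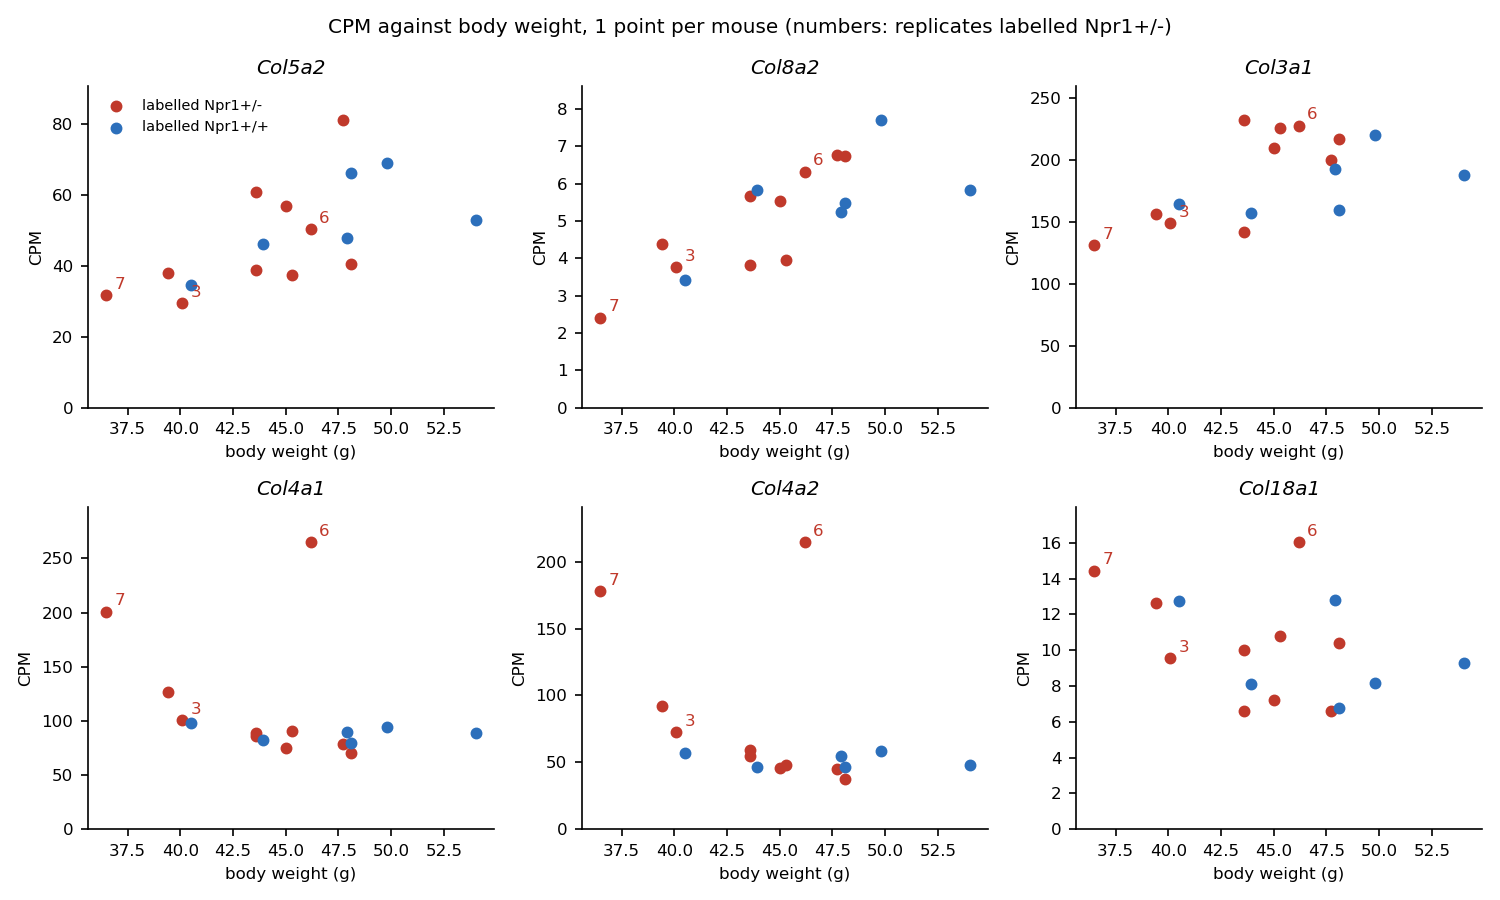
CPM of 6 collagen chains against body weight in g, 1 point per mouse, red for libraries labelled *Npr1*+/- and blue for *Npr1*+/+, with replicates 3, 6 and 7 labelled *Npr1*+/- numbered. *Col5a2*, *Col8a2* and *Col3a1* lie lower in light mice, and for *Col4a1* and *Col4a2* replicates 6 and 7 lie far above all other mice.

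The calls for body weight turned on single mice. Without replicate 3 labelled *Npr1*+/- (40.1 g), 3158 of 14284 genes (22.1%) passed an adjusted p under 0.05 in edgeR's test. Of the 35 chains, 8 passed (22.9%), each with a negative slope, where 13.7% of all genes passed with a negative and 8.44% with a positive one. They were *Col4a2* (-0.18), *Col4a1* (-0.13), *Col18a1* (-0.12), *Col5a1* (-0.10), *Col6a2* (-0.098), *Col15a1* (-0.092), *Col6a1* (-0.086) and *Col5a3* (-0.076). Their adjusted p-values ran from 0.0052 to 0.0353 in that fit of edgeR with Benjamini-Hochberg adjustment. Without replicates 3, 6 and 7, which was chosen after seeing the data, 0 chains and 0 of 14054 genes passed. The 8 slopes were then -0.10 to -0.048.

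**Figure D4:**
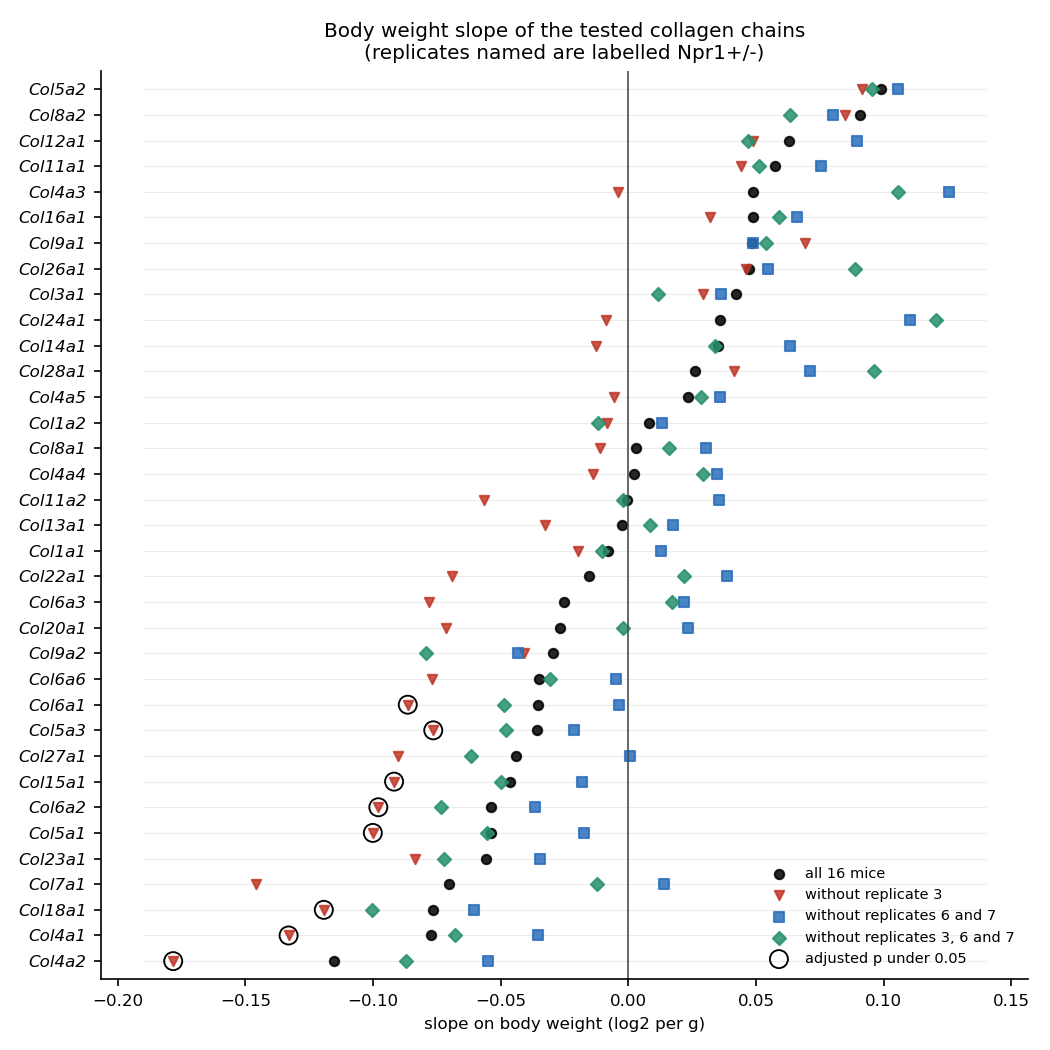
Slope on body weight (log2 per g) of the 35 tested chains in the edgeR fit with all 16 mice (black) and with 3 choices of mice left out, as given by the colours. The 8 ringed slopes, all below 0, had an adjusted p under 0.05 without replicate 3 labelled *Npr1*+/-, and no slope did in the other 3 fits plotted.

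A correction of each library for its relation to GC content and transcript length, also added after the data were seen, moved the slopes of the chains as a group. The tested chains are GC-rich, with a median of 55.7% against 49.4% over the genes used for the slopes. After correction, 32 of 35 chains (91.4%) had a positive slope, against 50.9% of all genes, and the median was 0.063, against 0.00093. At an unadjusted p under 0.05, 14 chains (40%) passed, each with a positive slope. Of all genes 16.2% passed, with slopes of both directions counted together. An adjusted p under 0.05 in edgeR's test was reached by 0 chains. *Col5a2* and *Col8a2* kept their direction at 0.15 each, *Col4a2* was -0.014 and *Col4a1* was 0.0091. The median genotype difference of the chains was 0.14 after the same correction, against 0.0090 for all genes.

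Between the 4 cages, 0 of 35 chains passed an adjusted p under 0.05 in edgeR's joint test of the cage terms with Benjamini-Hochberg adjustment, where 4 of all genes (0.0279%) did. At an unadjusted p under 0.05, 3 chains passed, where 7.36% of all genes did. *Col16a1* had the smallest p (0.0117, adjusted p = 0.656 in edgeR's test), with means of 13.0 CPM in cage 675, 7.96 in 676, 11.4 in 677 and 7.80 in 678. Its ranges in cages 675 and 677 lay above those in 676, and they did not overlap with them. *Col4a2* (p = 0.0252) and *Col4a1* (p = 0.0492, both with an adjusted p of 0.656 in edgeR's test) were highest on average in cages 675 and 678, which hold replicates 6 and 7 labelled *Npr1*+/-. Without replicate 3 labelled *Npr1*+/-, 7 chains (20%) and 869 genes (6.08%) passed the adjusted threshold for cage. These were *Col4a2*, *Col4a1*, *Col6a1*, *Col6a2*, *Col5a1*, *Col5a3* and *Col15a1*, with adjusted p-values of 0.0187 to 0.0470 in edgeR's test. Without replicates 3, 6 and 7, 0 chains passed.

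Partner chains of 1 molecule did not all follow each other over mice. *Col4a1* and *Col4a2* were the closest pair among 595 pairs of tested chains, with Pearson's r of 0.99 over 16 mice and 0.93 without replicates 6 and 7 labelled *Npr1*+/-. Their log2 ratio varied with an SD of 0.22, while the single chains varied with SDs of 0.52 and 0.71. *Col6a1* and *Col6a2* had r of 0.91 and 0.77 without these libraries, and their log2 ratio had an SD of 0.15. *Col6a3* followed *Col6a1* at 0.78, a value that rested on the same libraries, as it was -0.24 without them. All points share libraries, depth and tissue composition, so these values describe the 16 mice only.

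The type I chains *Col1a1* and *Col1a2* had r of 0.65, and 0.70 without replicates 6 and 7. The ratio of *Col1a2* to *Col1a1* was 0.73 ± 0.20 log2 (SD, n = 10) under the heterozygous label and 0.62 ± 0.18 (SD, n = 6) under the wildtype one, a difference smaller than either SD. *Col3a1* varied apart from *Col1a1* (r 0.016, and 0.47 without the 2 libraries). With *Col5a2*, which is encoded in the same region of chromosome 1, *Col3a1* had 0.54 (0.46 without them), and with *Col1a2* it had 0.41 (0.59 without them). *Col5a2* did not follow its partner *Col5a1* (-0.22, and -0.12 without them), whereas *Col5a3* did (0.79, and 0.45 without the 2 libraries). Among chains of different molecules, *Col22a1* and *Col7a1* varied together (0.95, and 0.89 without the 2 libraries), and *Col9a1* and *Col18a1* had the most negative value (-0.82, and -0.81 without them).

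Over all 595 pairs the median r was 0.25 and 73 pairs were above 0.7. Without replicates 6 and 7 labelled *Npr1*+/-, the median was 0.13 and 32 pairs were above 0.7. The excess of these libraries over the other 14 was 2.13 log2 for *Col7a1*, 1.87 for *Col4a2*, 1.38 for *Col4a1*, 1.34 for *Col6a3* and 1.30 for *Col22a1*. For *Col7a1* this meant 43.99 and 31.2 CPM, where the others had 2.33 to 15.98 CPM. For the abundant fibrillar chains the difference was smaller, at 0.20 for *Col1a2*, 0.19 for *Col1a1* and -0.09 for *Col3a1*. These are means of both libraries, and replicate 7 was the highest of 16 mice for *Col1a1* and the lowest for *Col3a1*. Replicate 10 labelled *Npr1*+/- was at the other end, with the lowest of 16 values for 8 chains.

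**Figure D5:**
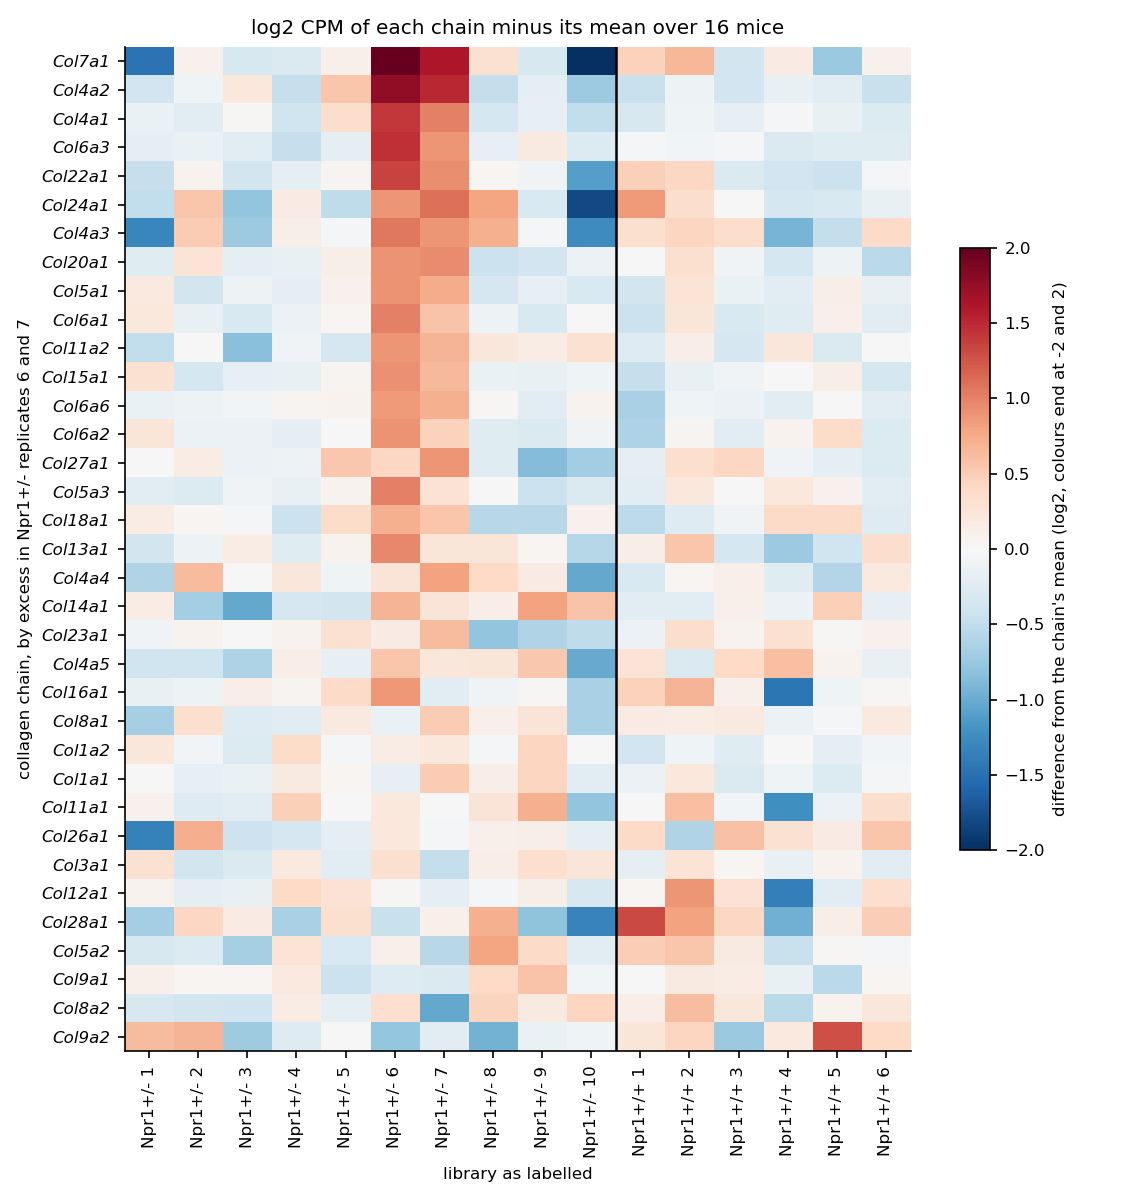
Difference of each tested chain's log2 CPM from its mean over 16 mice (red above, blue below, colours end at -2 and 2), with libraries as columns and chains ordered by their excess in replicates 6 and 7 labelled *Npr1*+/-. The chain with the largest excess in these libraries is *Col7a1* (2.13 log2), and for *Col3a1* the libraries lie 0.09 below the others on average.

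Marker genes of cell types varied along with some chains. *Col4a2* followed the summed endothelial markers with r of 0.92 over 16 mice and *Col4a1* with 0.88, and the values were 0.74 and 0.62 without replicates 6 and 7 labelled *Npr1*+/-. With the slopes of the libraries on transcript length they had 0.89 and 0.86, and 0.76 and 0.71 without these replicates. With the slopes on GC content they had 0.81 each, and 0.53 and 0.55 without these replicates. *Col3a1* followed 8 fibroblast markers (among them *Pdgfra*, *Dcn* and *Lum*) with 0.76, and 0.77 without replicates 6 and 7. It also had 0.72 with the macrophage markers. The other tested chains of types I, V and VI had 0.48 (*Col1a2*) down to -0.22 (*Col5a3*) with the fibroblast markers. Without replicates 6 and 7 these ends were 0.64 and -0.25. *Col5a2* had 0.59 with 8 tendon markers (0.77 without replicates 6 and 7) and -0.71 with the muscle fiber markers (-0.72 without them). *Col28a1* had 0.77 with 6 Schwann cell markers, and 0.76 without them, and Schwann cells are a known source of this chain. Endothelial markers were 152 to 539 CPM in the libraries labelled *Npr1*+/- and 185 to 251 CPM in those labelled *Npr1*+/+. Fibroblast markers were 1051 to 2061 against 1224 to 1925 CPM, and tendon markers 213 to 641 against 277 to 443 CPM. Mural cell markers were 831 to 1302 against 862 to 1057 CPM, Schwann cell markers 122 to 188 against 111 to 225 CPM, and macrophage markers 32.3 to 135 against 59.8 to 108 CPM. Adipocyte markers were 23.0 to 342 against 71.8 to 220 CPM, and cartilage and bone markers stayed low, at 2.23 to 18.8 CPM over all mice, with *Matn1* at 0 counts. The ranges of the labels overlapped for each list, and their part in the collagen values was not tested.

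Genes that modify, process and bind collagen did not pass for the label either. Of 21 genes for collagen modification in the endoplasmic reticulum, all tested, 10 were above 0 and 11 below for the label, with 0 at an unadjusted p under 0.05 and a median log2 fold change of -0.0032. For body weight, 6 of the 21 had an unadjusted p under 0.05, 3 in each direction, where 17.1% of all genes did, and 0 an adjusted one. The smallest were *Mia3*, which loads procollagen into transport carriers (-0.11 per g, p = 0.0082), *P3h4*, a partner of lysyl hydroxylases (0.073, p = 0.0112), and *Plod2*, the lysyl hydroxylase of telopeptides (0.082, p = 0.0247), each with an adjusted p of 0.245 to 0.254 in edgeR's test. Of 14 genes for processing and crosslinking, 11 were tested and 8 were above 0 for the label. *Lox*, which starts the crosslinks, had the smallest p for body weight (0.078 per g, p = 0.0063, adjusted p = 0.245 in edgeR's test), in the direction of *Col5a2* and *Col8a2*. Of 10 collagen receptors, 9 were tested, and 2 had an unadjusted p under 0.05 for body weight, against the same 17.1% of all genes. These were the integrin subunits *Itga11* (-0.13 per g, p = 0.0029) and *Itgb1* (0.061, p = 0.0248), with adjusted p-values of 0.245 and 0.254 in edgeR's test. When replicates 6 and 7 labelled *Npr1*+/- were left out, the slopes were -0.062 for *Mia3*, 0.070 for *P3h4*, 0.096 for *Plod2*, 0.081 for *Lox*, -0.11 for *Itga11* and 0.061 for *Itgb1*. Without replicate 3 labelled *Npr1*+/-, *Mia3*, *P3h4*, *Itga11* and *Itgb1* had adjusted p-values of 0.0067, 0.0261, 0.0067 and 0.0353 in edgeR's test. Those of *Plod2* and *Lox* were 0.0877 and 0.167 in the same test. In that fit 6 of 21 modification genes, 1 of 11 processing genes and 2 of 9 receptors passed an adjusted p under 0.05, where 22.1% of all genes did.

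The genes outside the family with the pattern most like *Col1a1* over the 16 mice were *Gm4951* (r 0.77), *Socs1* (0.69), *Gm29264* (0.68), *Zc3h12b* and *Itga8* (0.67 each), *Gfra1* (0.66), *7530428D23Rik* (0.64) and *Qpctl*, *Plxnb3* and *Dapk2* (0.63 each). Among the collagen chains themselves, *Col1a2* was at 0.65 on the same measure. Each value is over 16 libraries that share tissue and processing. Without replicates 6 and 7 labelled *Npr1*+/-, the 10 values were 0.43 (*Dapk2*) to 0.79 (*Gm29264*).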

How the data were processed

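Skeletal muscle mRNA of 16 male mice was sequenced with paired reads of 52 bases. The authors demultiplexed the reads, mapped them to GRCm38 with STAR 2.7.2b on the GENCODE M24 gene model and counted fragments with both ends aligned using featureCounts (1.6.4 in the submitters' processing notes, another version in the methods), and they deposited raw counts per gene without normalization. The methods name the TruSeq Stranded mRNA protocol and the labels the Universal Plus mRNA-seq kit, so the kit is uncertain. The deposited table also holds each gene's position and its length in bases, which was used for levels per kilobase. Symbols were found for 55144 of 55471 identifiers with the GENCODE M21 names. Library totals were 15273472 to 59682677 counts, and limits from a count of 0 (3 counts) cover counting error only.

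After a filter on low counts (filterByExpr, by genotype label) and TMM scaling, genes were fitted in edgeR 4.0.16 (R 4.3.3) with glmQLFit (robust, legacy) on genotype label, cage and body weight, all 16 mice included. P-values of glmQLFTest were adjusted by the Benjamini-Hochberg method over all 14331 tested genes, with a threshold of 0.05. Confidence intervals (95%) come from the same fit, and log2 CPM used a prior count of 2. The steps were tested on simulated data. Correlations over mice are given as descriptions without p-values.

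The members, gene lists and comparisons were chosen with earlier results of these data known. Full statistics were given for the main heterotrimer chains, *Col22a1*, *Col13a1* and the 3 chains with the smallest p for genotype, body weight and cage. Same-numbered replicates of the labels are different animals, and their deviations correlated with 0.033 to 0.17 over the 6 pairs, so the numbers were not taken as pairing. The alternatives were fits with fewer covariates, a replicate block, other size factors, DESeq2 1.42.0, limma-voom (limma 3.58.1), other filters, leaving out each mouse, and a threshold without adjustment. Leaving out heterozygous replicates 6 and 7, or 3, 6 and 7, and a correction for GC content and transcript length were added after the data were seen. Promoter windows are RefSeq's (GRCm38.p6), found for 35 of the 44 chains.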

Additional observations from a re-analysis of the deposited data

Results flagged for a closer look

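The log2 CPM of each tested chain and of *Npr1* was examined within each label for single mice far from the rest, over 72 groups in all. In 5 of them 1 mouse lay beyond Dixon's 95% limit, and chance gives about 1 in 20, or 3.6 groups. *Col5a3* was highest in replicate 6 labelled *Npr1*+/-, at 5.92 (60.6 CPM), where the other mice of that label had 4.48 to 5.20. *Col13a1* was highest in the same library, at 1.58, where the others had 0.043 to 0.86. Replicate 6 is 1 of the libraries that stood apart for many chains. *Col6a6* was lowest in replicate 1 labelled *Npr1*+/+, at 0.638, where the others of that label had 1.06 to 1.27. *Col16a1* was lowest in replicate 4 labelled *Npr1*+/+, at 1.78 (3.34 CPM), where the others had 3.14 to 3.90, and the genotype difference of this chain is 0.13 without that mouse. *Col26a1* was lowest in replicate 2 labelled *Npr1*+/+, at -0.646, where the others had 0.12 to 0.54.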

How the results depend on the processing

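For the genotype label, 0 chains passed an adjusted p under 0.05 under any alternative, and the count over all genes was 0 to 3 when each mouse was left out, 2 with the replicate block in place of cage, 6 in DESeq2, 8 with no filter on low counts, 2 without replicates 6 and 7 labelled *Npr1*+/-, and 1 without replicates 3, 6 and 7. Chains at an unadjusted p under 0.05 were 1 in the fit as reported, 0 to 2 when each mouse was left out, 2 in limma-voom and after the GC and length correction, 3 with no filter, and 0 with body weight as the only covariate, with RLE size factors, with at least 10 counts in every mouse and without replicates 6 and 7. Chains above 0 numbered 14 (40.0%, without replicate 6 labelled *Npr1*+/-) to 28 (80.0%, without replicate 5 labelled *Npr1*+/+), and 28 with the replicate block.

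For body weight, DESeq2 called 26 genes (0.884% of those it gave an adjusted p) and 1 chain (*Col5a2*, slope 0.10). At an unadjusted p under 0.05, 20% of the chains passed in DESeq2, against 19.7% of all genes. The fit as reported had 5 chains (14.3%) at that threshold, against 17.1% of all genes. Leaving out each mouse gave 0 to 3158 genes, 0 to 8 chains, 2 to 16 chains at an unadjusted p under 0.05 and 9 to 23 positive slopes (25.7% to 65.7%). Without replicates 6 and 7, 68.6% of slopes were positive, against 54.3% of all genes. After the GC and length correction 32 chains (91.4%) were positive, with a median of 0.063, and 14 had an unadjusted p under 0.05. For cage, leaving out each mouse gave 0 to 869 genes, 0 to 7 chains and 1 to 15 chains at an unadjusted p under 0.05. The genes called were 86 in DESeq2, 23 with no filter, 11 after the GC and length correction, 1 in limma-voom, with at least 10 counts in every mouse and without replicates 3, 6 and 7, and 0 with library size only. The chains at an unadjusted p under 0.05 were 1 with cage as the only term, in limma-voom, without replicates 6 and 7 and after the GC and length correction.

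Single chains turned sign under some alternatives, and with all 16 mice each of them had an adjusted p above 0.05. For the label, *Col5a2* was -0.18 with the label alone and with cage as the only covariate, and -0.030 with the replicate block. *Col6a2* was 0.17, 0.15, 0.14 and 0.35 with the label alone, cage only, body weight only and the replicate block. *Col8a2* was -0.18 and -0.10 with the label alone and cage only, and *Col16a1* was -0.0054 with the label alone. *Col5a1* was -0.019 with library size only, -0.00086 in limma-voom, -0.082 without replicates 6 and 7, -0.033 without 3, 6 and 7, and -0.032 after the GC and length correction, and *Col4a1* was -0.038 without replicates 6 and 7. Leaving out each mouse gave -0.062 to 0.18 for *Col1a1*, -0.18 to 0.14 for *Col5a1*, -0.13 to 0.33 for *Col4a1*, -0.10 to 0.58 for *Col4a2*, -0.067 to 0.26 for *Col6a1*, -0.25 to 0.12 for *Col6a2*, -0.036 to 0.44 for *Col6a3* and -0.073 to 0.38 for *Col22a1*.

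For body weight, *Col1a2* was -0.017 and *Col9a2* 0.015 with body weight as the only term. *Col13a1* was 0.0024 with RLE size factors, 0.0053 with library size only and 0.0022 in DESeq2, and *Col1a1* was 0.00034 with library size only. Without replicates 6 and 7, *Col1a1*, *Col6a3*, *Col22a1* and *Col13a1* were 0.013, 0.022, 0.039 and 0.018. Without replicates 3, 6 and 7, *Col1a2*, *Col6a3*, *Col22a1* and *Col13a1* were -0.012, 0.017, 0.022 and 0.0085. After the GC and length correction *Col1a1* was 0.066, *Col5a1* 0.042, *Col4a1* 0.0091, *Col6a1* 0.016, *Col6a3* 0.075, *Col22a1* 0.069, *Col13a1* 0.039, *Col9a2* 0.021 and *Col23a1* 7.6e-05. Of these, *Col4a1*, *Col5a1* and *Col6a1* had passed with negative slopes without replicate 3 labelled *Npr1*+/-. Leaving out each mouse gave -0.020 to 0.0067 for *Col1a1*, -0.0082 to 0.019 for *Col1a2*, -0.078 to 0.019 for *Col6a3*, -0.069 to 0.039 for *Col22a1*, -0.033 to 0.030 for *Col13a1* and -0.063 to 0.0046 for *Col9a2*. The causes were not tested. Levels per kilobase moved by less than 1 SD with library size only.

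The shallowest library had 15273472 counts, and 9 chains were too low to test with all 16 mice under the filter used. For the tested chains, the 95% intervals of the genotype difference, which give the differences not excluded, ran from -0.08 to 0.53 for *Col1a2*, the narrowest, and from -0.92 to 1.29 for *Col7a1*, the widest. The fits with heterozygous replicates left out together and the GC and length correction were chosen after seeing the data.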
